A study of Mus musculus with 15 samples.

Results

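The 9 genes described here build, break down and regulate glycogen in muscle: Gys1, Gbe1, Gyg, Ugp2, Pygm, Phka1, Phkg1, Ppp1r3a and Ppp1r3c. They were found by gene symbol in a deposited table of tag counts that holds 13602 symbols, and all 9 were present and passed the low-count filter that left 11062 genes for testing. The libraries came from the gastrocnemius, a mainly fast-twitch calf muscle, of 7 male mice lacking Cpt1b in skeletal muscle only (Cpt1b skeletal muscle knockout) and of 8 male floxed wild-type mice. Cpt1b encodes the muscle form of carnitine palmitoyltransferase, which admits long-chain fatty acids to the mitochondrion. The comparison asked what differs in muscle of mice labelled as knockouts of this gene. Neither the Cre driver nor the age of the mice is stated in the labels. Both groups were fed chow over 12 to 14 weeks according to the titles and series text, but each of the 15 samples carries 45% HFD as its diet label.

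Glycogen is a branched polymer of glucose that fast-twitch muscle keeps as a local fuel for contraction. UDP-glucose is made by the pyrophosphorylase Ugp2, glycogenin (Gyg) primes a new particle, glycogen synthase (Gys1) lengthens the chains, and the branching enzyme Gbe1 moves short stretches of chain to make new branch points. Breakdown is carried out by muscle phosphorylase (Pygm), which is switched on by phosphorylase kinase, a complex whose regulatory alpha subunit in muscle is Phka1 and whose catalytic gamma subunit is Phkg1. Protein phosphatase 1 (PP1) works against the kinases and is brought to the glycogen particle by targeting subunits. Among them are Ppp1r3a, the muscle glycogen-targeting subunit, and Ppp1r3c, also called protein targeting to glycogen.

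Expression was measured by SAGE, which reads and counts a short piece of sequence (a tag) close to a transcript's 3' end, so a level does not scale with transcript length. Tags were predicted here from GENCODE M21 transcripts (GRCm38) as the 27 bases from the CATG site nearest the 3' end. Which tags the authors assigned to each gene is not given in the sources used here, and these are predictions. For 8 of the 9 members the predicted tag occurred as such a tag in no other annotated gene, and in 8 of the 9 it lay in the 3' UTR. The sequences below belong to Gbe1 and the phosphatase inhibitor Ppp1r1a, the genes called below, to Gys1 and Pygm, against which ratios were taken, and to Phkg1, whose tag is shared, with the CATG site in capitals, each 5′ to 3′ on its gene's strand.
Gbe1: CATGattattttggctgtagtaaaaat
Gys1: CATGtacctcgaggcctttctgcctgc
Pygm: CATGaccggtttaaagtctttgcagat
Phkg1: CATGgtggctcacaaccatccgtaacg
Ppp1r1a: CATGcacaaatagagaaatggtctgtg
The Gbe1 tag lies at chr16:70569352-70569378 on the plus strand and was shared by 3 of 4 coding transcripts of the gene. The Gys1 tag (chr7:45456434-45456460, plus strand) belonged to 1 of 3 coding transcripts. The Pygm tag (chr19:6397705-6397884, plus strand) is coding sequence and crosses an intron. The Phkg1 tag (chr5:129863506-129863532, minus strand) belonged to 1 of 3 coding transcripts and was also the predicted tag of transcripts of 18 other genes, so the level of Phkg1 is uncertain. The Ppp1r1a tag lies at chr15:103530348-103530374 on the minus strand.

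Total counts ran from 9390065 to 19397255 in knockout libraries and from 8334436 to 16238258 in control libraries, and the group means did not differ beyond the spread (two-sided exact permutation test, p = 0.901). Knockout replicate 4 and control replicate 7 were the deepest libraries of their groups and lay farthest along the leading principal component, which held 44.6% of the variance. Cpt1b tags averaged 3.79 ± 1.64 CPM in knockout libraries and 7.63 ± 3.16 CPM in control libraries (SD, n = 7 and n = 8). On log2 CPM the exact permutation test gave a two-sided p of 0.00389, and the edgeR adjusted p was 0.103. The lowest, median and highest values were 1.09, 3.83 and 6.45 CPM in knockouts and 4.44, 6.51 and 13.1 CPM in controls. The groups overlapped, with 2 of 7 knockouts inside the control range and 4 of 8 controls inside the knockout range. Its predicted tag lies in the 3' UTR and is shared with 1 other annotated gene. The deleted part of the gene is not named in the labels, so a tag at this place may not check the genotype. All 14 skeletal muscle markers were present. Their summed level was 118421 to 177258 CPM in knockout libraries (median 142744) and 159488 to 190155 CPM in control libraries (median 182744). Levels below are CPM, tag counts relative to the TMM-scaled library total, given as the lowest, median and highest library of a group. Differences are log2 fold changes, knockout over control, from edgeR's quasi-likelihood test with standard errors, and genes were called at an adjusted p below 0.05 over all genes tested.

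Of the 9 glycogen genes, Gbe1 rose in Cpt1b knockout muscle and no other member was called. This share, 1 of 9, stands beside 2.17% of all tested genes called in either direction, 1.67% called higher and 0.497% called lower. The synthesis genes had positive fold changes in 3 of 4 cases and the 3 breakdown genes none, beside 50.6% of all tested genes. Gys1 (-0.0013), Gyg (0.063) and Pygm (-0.083) lay near 0, and each changed sign with some single library left out. The Phkg1 tag is shared, and the signs by role were not tested. The median of the 9 members was -0.0013 against 0.0047 over all tested genes. For 8 of the 9 members the group means lay within 1.5-fold of each other. At an unadjusted p below 0.05 there were 4 members, 2 higher (Gbe1 and Ugp2) and 2 lower (Phka1 and Phkg1), beside 13.6% of all tested genes.

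**Figure D1:**
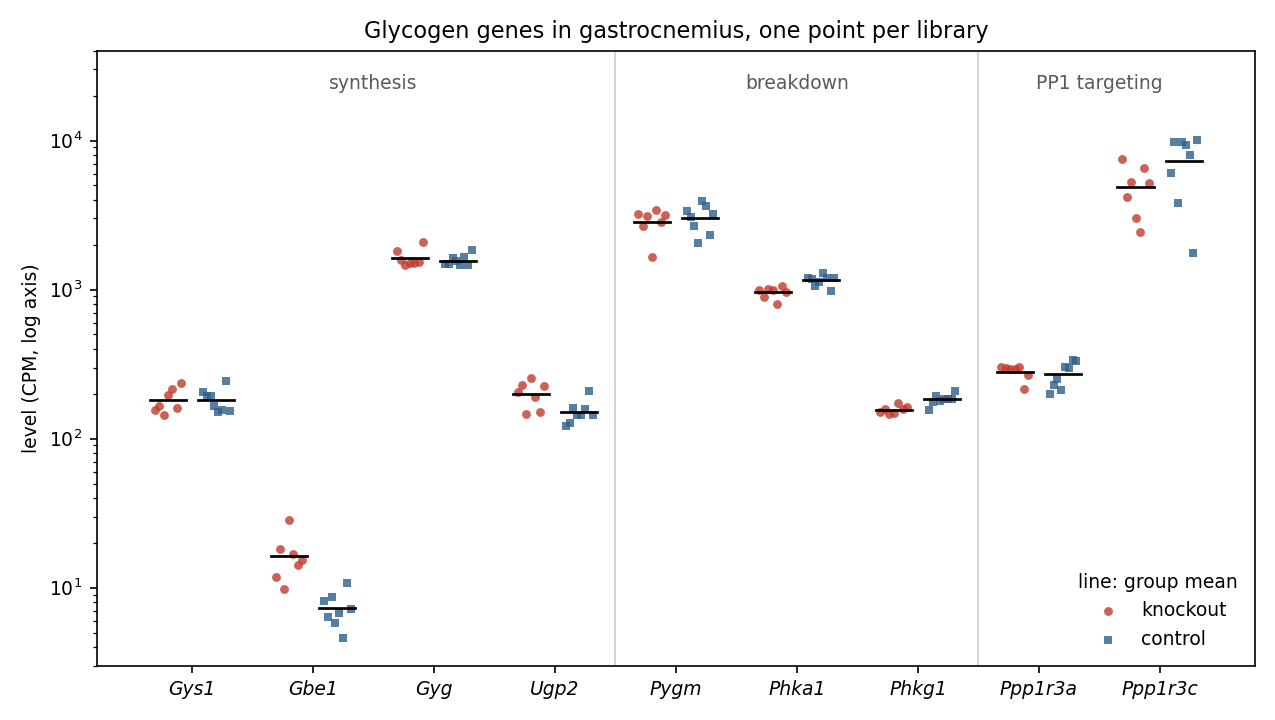
Level of each of the 9 glycogen genes in CPM on a log axis, with knockout libraries as red circles left of control libraries as blue squares, 1 point per library and a black line at each group mean. Gbe1 is the least abundant member, and 6 of its 7 knockout points lie above the highest control point, while the points of the other members overlap more widely.

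The levels of the members spanned a wide range, from the branching enzyme at the bottom to a PP1 targeting subunit at the top. In knockout muscle the order of means was Ppp1r3c, Pygm, Gyg, Phka1, Ppp1r3a, Ugp2, Gys1, Phkg1 and Gbe1. In control muscle it was Ppp1r3c, Pygm, Gyg, Phka1, Ppp1r3a, Phkg1, Gys1, Ugp2 and Gbe1. Among Ppp1r3a, Ugp2, Gys1 and Phkg1 the ranges of neighbours overlapped in both groups, while Phka1 lay clear above them and Gbe1 clear below. Within libraries, Ugp2 was above Gys1 in 4 of 7 knockouts and Gys1 above Phkg1 in 6 of 7. In controls, Phkg1 was above Gys1 in 4 of 8 libraries and Gys1 above Ugp2 in 7 of 8. The order of means of Ugp2 and Phkg1 thus differed between the groups, and it was not tested. Ppp1r3c and Pygm also overlapped, although Ppp1r3c was the higher in 6 of 7 knockout libraries and 7 of 8 control libraries, and so did Pygm and Gyg in knockout muscle, where Pygm was the higher in all 7. By mean level Ppp1r3c ranked 24th in knockout muscle and 17th in control muscle among the 13602 genes of the table, and Pygm ranked 40th and 41st. The 9 genes together took 0.875% to 1.41% of all counts in knockout libraries and 0.875% to 1.63% in control libraries.

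Gbe1, the branching enzyme (chromosome 16, 70313949 to 70569716, GRCm38), had 9.85, 15.3 and 28.6 CPM in knockout libraries, against 4.57, 6.95 and 10.8 CPM in control libraries. The groups overlapped in a single pair of libraries: control replicate 7, the highest control, lay above knockout replicate 3, the lowest knockout, and the other 6 knockout libraries lay above every control. In tags, the counts were 121 to 602 in knockout libraries and 60 to 203 in control libraries. The mean was 16.4 ± 6.10 CPM in knockout muscle and 7.28 ± 1.91 CPM in control muscle (SD, n = 7 and n = 8), a ratio of 2.26. This corresponds to a log2 fold change of 1.17 ± 0.22 (SE) at an edgeR adjusted p of 0.00438, and Gbe1 ranked 92nd by p among the 11062 tested genes. Knockout replicate 4 held the highest value, and without it and control replicate 7 the difference was 1.08 ± 0.17 (edgeR adjusted p = 0.000786). Each was the highest Gbe1 library of its group, so leaving them out narrows the spread, and the smaller p adds no support.

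Set against glycogen synthase, the enzyme whose chains it branches, Gbe1 did not overlap between the groups, although its level alone did. The ratio of Gbe1 to Gys1 tags was 0.0646, 0.0779 and 0.145 in knockout libraries and 0.0293, 0.0421 and 0.0463 in control libraries. All 7 knockout ratios exceeded all 8 control ratios. Since both counts come from the same library, this ratio does not depend on how libraries were scaled. It was chosen with the level of Gbe1 known and was not tested. How often ratios between genes separate these groups was not counted. Gys1 and Gbe1 also varied alike from library to library (Pearson r = 0.645 of log2 CPM, group means subtracted). Both also went with the leading principal component (r = 0.598 and 0.785, centred by group), and their likeness apart from it was not tested.

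**Figure D2:**
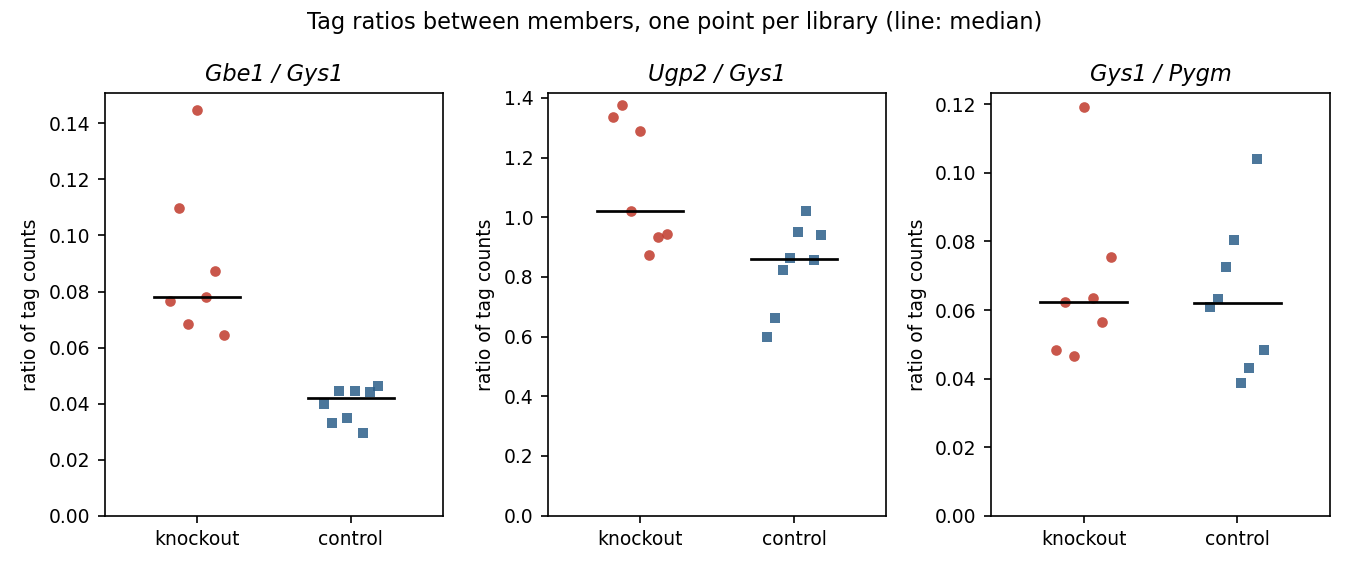
Ratio of tag counts between pairs of members in each library, with knockout libraries as red circles on the left and control libraries as blue squares on the right of each panel and a line at the median. The Gbe1 to Gys1 ratio runs from 0.0646 to 0.145 in knockouts and from 0.0293 to 0.0463 in controls, whereas the medians of the Gys1 to Pygm ratio are 0.0625 in knockouts and 0.0619 in controls.

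Gys1, muscle glycogen synthase (chromosome 7, 45434844 to 45456619), had 144, 166 and 237 CPM in knockout libraries and 152, 179 and 244 CPM in control libraries. The groups overlapped almost throughout, and 7 of the 8 controls lay inside the knockout range. Gys1 had a log2 fold change of -0.0013 ± 0.14, with a 95% interval from -0.28 to 0.28 (normal approximation), and the edgeR adjusted p was 0.998. The sign of so small a value changed with scaling by library totals and with 8 of the 15 single libraries left out.

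Gyg, the self-glucosylating primer glycogenin (chromosome 3, 20122084 to 20155317), was the most abundant of the synthesis genes. It had 1465, 1521 and 2074 CPM in knockout libraries and 1451, 1521 and 1830 CPM in control libraries, with equal medians at this precision and 6 libraries of each group inside the range of the other. Its log2 fold change was 0.063 ± 0.11 (95% interval -0.16 to 0.29, edgeR adjusted p = 0.814), and it turned to -0.0026 without knockout replicate 7.

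Ugp2, which makes the UDP-glucose used by both glycogenin and the synthase (chromosome 11, 21321138 to 21371201), had 147, 206 and 255 CPM in knockout libraries, against 122, 145 and 209 CPM in control libraries. In 3 knockout libraries the level was above every control, and in 5 control libraries it was below every knockout. The mean was 200.3 ± 40.4 CPM in knockout muscle and 151 ± 26.8 CPM in control muscle (SD, n = 7 and n = 8). The log2 fold change of 0.40 ± 0.15 (95% interval 0.12 to 0.69) did not pass over all genes tested, with an edgeR adjusted p of 0.204 and an unadjusted p of 0.0121. Control replicate 7 was the highest control, and without it the difference was 0.49 ± 0.13 and passed (edgeR adjusted p = 0.0477). It did not pass when knockout replicate 4 was left out as well (0.41 ± 0.13, edgeR adjusted p = 0.0859).

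Pygm, the muscle phosphorylase that releases glucose 1-phosphate from glycogen (chromosome 19, 6384399 to 6398459), had 1659, 3096 and 3418 CPM in knockout libraries and 2059, 3128 and 3921 CPM in control libraries. The ranges overlapped, with 6 of 8 controls inside the knockout range, and knockout replicate 4 stood below all other libraries. Pygm had a log2 fold change of -0.083 ± 0.17 (95% interval -0.41 to 0.25, edgeR adjusted p = 0.835), and 0.015 without knockout replicate 4. Muscle phosphorylase made up 99.1% to 99.8% of the tags of the 3 phosphorylase genes in knockout libraries and 99.5% to 99.8% in control libraries, so the brain form Pygb and the liver form Pygl contributed few tags in either group.

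The subunits of phosphorylase kinase, which activates Pygm, had lower medians in the knockout and were not called. Phka1, the regulatory alpha subunit (chromosome X, 102513975 to 102644246), had 798, 988 and 1061 CPM in knockout libraries and 983, 1184 and 1300.1 CPM in control libraries. In 6 of the 8 controls the level was above every knockout, and 3 knockouts were below every control. Its log2 fold change was -0.27 ± 0.11 (95% interval -0.48 to -0.059, edgeR adjusted p = 0.271, unadjusted p = 0.0216).

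Phkg1, the catalytic gamma subunit (chromosome 5, 129863421 to 129898549), had 147, 157 and 174 CPM in knockout libraries and 156, 185 and 209 CPM in control libraries. In 7 of the 8 controls it was above every knockout, the exception being control replicate 1. The log2 fold change was -0.23 ± 0.096 (95% interval -0.42 to -0.040, edgeR adjusted p = 0.305), while DESeq2 placed it past the threshold at -0.24 ± 0.074 (DESeq2 adjusted p = 0.0384). Its standard error was the smallest among the 9 members, and its spread between libraries was small too, with a coefficient of variation of 6.35% in knockouts and 8.12% in controls. The shared tag shown above limits what this level stands for.

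The pair of PP1 targeting subunits differed in abundance and in spread. Ppp1r3a, the muscle glycogen-targeting subunit (chromosome 6, 14713977 to 14755274), had 215, 294 and 305 CPM in knockout libraries and 199, 273 and 338 CPM in control libraries. All 7 knockouts lay inside the control range. Its log2 difference was 0.061 ± 0.14 (95% interval -0.21 to 0.33, edgeR adjusted p = 0.852).

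Ppp1r3c, which also binds glycogen synthase and phosphorylase (chromosome 19, 36731731 to 36736653), had 2442, 5201 and 7545 CPM in knockout libraries and 1764, 8692 and 10036 CPM in control libraries. In 5 of the 8 controls the level was above every knockout, whereas control replicate 7 held the lowest value of all libraries. The mean was 4890 ± 1837 CPM in knockout muscle and 7326 ± 3139 CPM in control muscle (SD, n = 7 and n = 8). The log2 fold change of -0.58 ± 0.32 was the largest in size after that of Gbe1, with a 95% interval from -1.22 to 0.049, and did not pass (edgeR adjusted p = 0.443). Its coefficient of variation, 37.6% in knockouts and 42.9% in controls, was the highest of the 9 members in each group. Ppp1r3c alone took 26.9% to 52.6% of the tags of the 9 genes in knockout libraries and 23.4% to 64.4% in control libraries, so the summed level of the members mainly follows it. Without it, that sum was 5074, 6315 and 7079 CPM in knockout libraries and 5448, 6581 and 7465 CPM in control libraries.

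**Figure D3:**
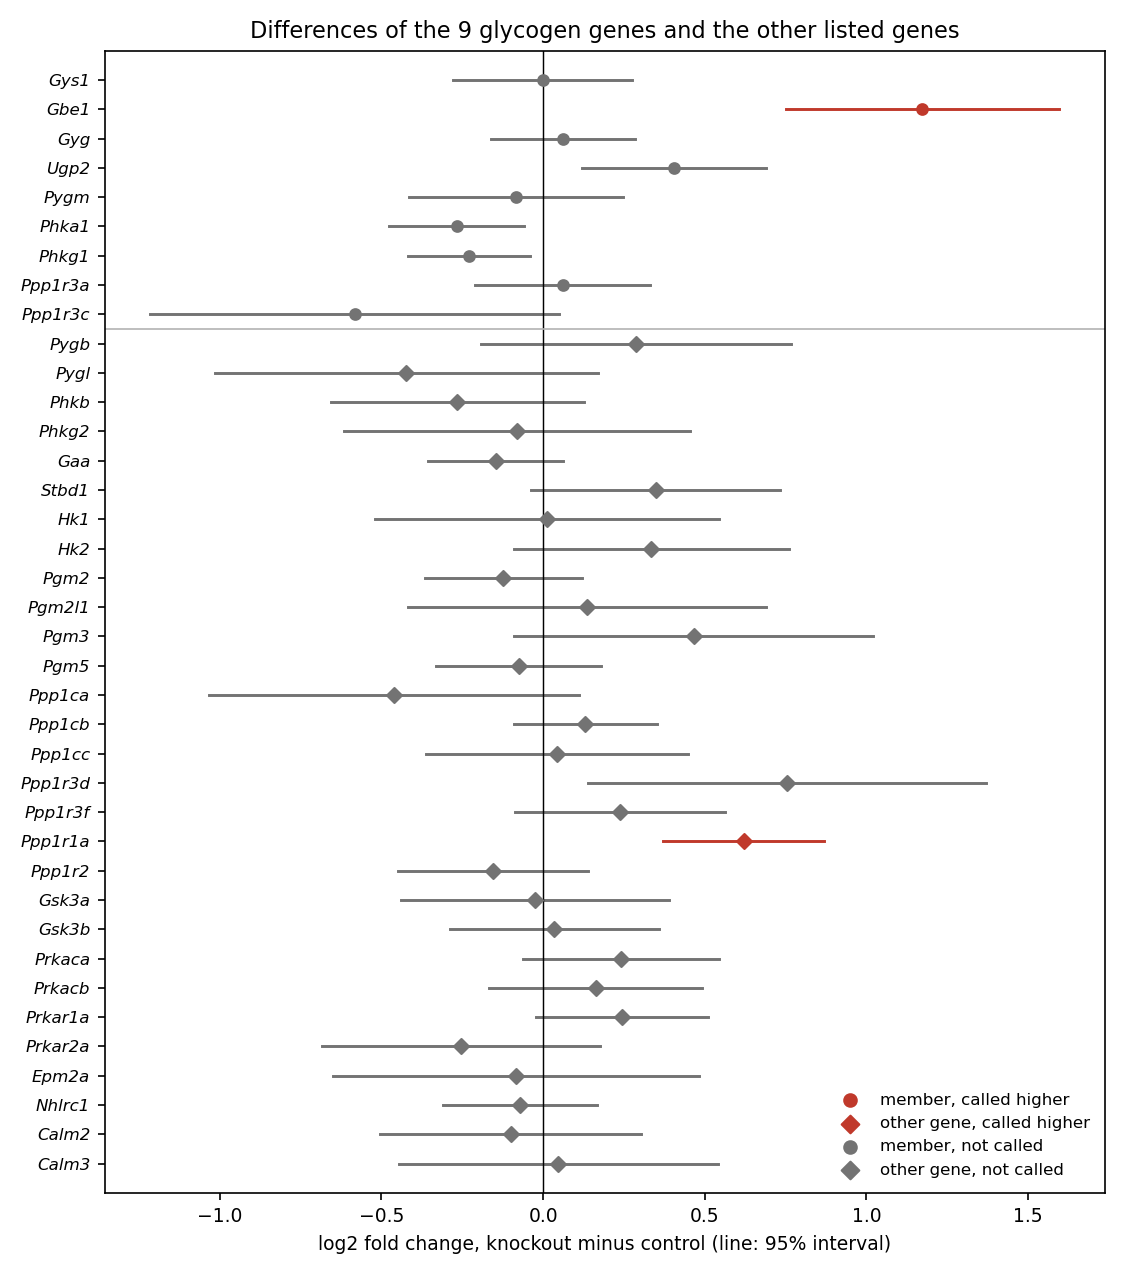
Log2 fold change of knockout minus control with its 95% interval for the 9 glycogen genes (circles, above the grey line) and for 29 of the 31 other listed genes of glycogen metabolism that were tested (diamonds). Gbe1 at 1.17 and Ppp1r1a at 0.62 are drawn in red as called higher, and every other gene drawn is grey.

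Other genes of glycogen metabolism were read from a list of 37, of which 35 were in the table and 31 were tested. Of these 31, 1 rose and none fell by edgeR's quasi-likelihood test, beside 1.67% and 0.497% of all tested genes, and their median log2 fold change was 0.034. By DESeq2 the counts were the same. At an unadjusted edgeR p below 0.05 there was also Ppp1r3d, higher, and none lower, beside 13.6% of all tested genes. Ppp1r3d had few tags, a mean of 16.1 per library, and an edgeR adjusted p of 0.299. The gene that rose was Ppp1r1a, protein phosphatase inhibitor 1, which blocks PP1 once it is phosphorylated by protein kinase A (chromosome 15, 103530279 to 103538003). It had 192, 224 and 281 CPM in knockout libraries, against 103, 151 and 189 CPM in control libraries, and every knockout lay above every control, as in 1.19% of all tested genes whose groups did not overlap in either direction. The log2 fold change was 0.62 ± 0.13 (edgeR adjusted p = 0.0104), and 0.59 ± 0.11 without control replicate 7 and knockout replicate 4 (edgeR adjusted p = 0.00364). Each of these libraries was the lowest of its group for Ppp1r1a, so leaving them out narrows the spread.

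Abundant genes of each further role were not called. Phkb, the beta subunit of phosphorylase kinase, averaged 1060 ± 295 CPM in knockouts and 1274 ± 311 CPM in controls, a log2 difference of -0.27 ± 0.20. The lysosomal glucosidase Gaa averaged 95.7 ± 9.71 CPM in knockouts and 106 ± 12.0 CPM in controls (-0.15 ± 0.11). Calmodulin, the calcium-binding delta subunit of phosphorylase kinase, was represented by Calm2, with a log2 difference of -0.10 ± 0.21.

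Upstream of UDP-glucose, the phosphoglucomutase Pgm2 averaged 464 ± 84.0 CPM in knockouts and 505 ± 54.4 CPM in controls, and the hexokinase Hk2 95.5 ± 30.3 CPM and 75.7 ± 25.9 CPM (SD, n = 7 and n = 8), with log2 differences of -0.12 ± 0.12 and 0.34 ± 0.22. Among the partners of the targeting subunits, the PP1 catalytic subunit Ppp1ca differed by -0.46 ± 0.29 and inhibitor 2, Ppp1r2, by -0.15 ± 0.15. The protein kinase A subunits Prkar1a and Prkaca differed by 0.24 ± 0.14 and 0.24 ± 0.15. The edgeR adjusted p of the genes named here ran from 0.448 for Prkar1a to 0.837 for Calm2, and Pygb, the second most abundant of the other isoforms, stood at 0.29 ± 0.24 (edgeR adjusted p = 0.615).

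Once each group's mean was subtracted, some pairs of members varied alike from library to library and others in opposite directions. Over the 15 libraries, which share one scaling and one muscle, Phka1 and Ppp1r3c were the pair most alike (Pearson r = 0.775 of log2 CPM), followed by Gys1 and Gbe1 (0.645) and by Gbe1 and Ugp2 (0.612), whose value was 0.275 without control replicate 7 and knockout replicate 4. Gys1 and Ppp1r3c ran most opposite (r = -0.708), then Gbe1 and Ppp1r3c (-0.699). Out of 9935 genes with a mean of at least 20 tags, Fbxo9 (r = 0.92) and Blvrb (0.917) were among the 3 whose centred levels were most like those of Gbe1, and neither was called. These correlations describe the libraries and carry no test.

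The position of a library on the leading principal component went with several of these levels. Scores ran from -18.7 to 76.2 in knockout libraries and from -43.0 to 51.2 in control libraries. They overlapped but reached higher at both ends in knockouts. The component is therefore not separate from group, and its part in the group differences was not tested. Centred by group, the correlation with that component over the 15 libraries was 0.822 for Ugp2, 0.785 for Gbe1 and 0.598 for Gys1. It was -0.825 for Ppp1r3c, -0.633 for Pygm and -0.608 for Phka1. Ppp1r3a (0.451), Phkg1 (0.29) and Gyg (-0.065) lay between. Some fibre-type markers also differed between the groups. Of 8 slow-fibre markers 2 rose, beside 1.67% of all tested genes, namely the calcium pump Atp2a2 (log2 0.84) and the calcium buffer Casq2 (0.80). All 8 had a positive fold change, with a median of 0.70, but the slow myosin Myh7 (0.16), Myl3 (0.061) and Tnnt1 (0.30) differed little. The summed level of the 8 slow-fibre markers overlapped, at 2766, 3821 and 4716 CPM in knockout libraries and 1616, 2981 and 4175 CPM in control libraries. Myl3, the most abundant of them, averaged 2104 CPM in knockouts and 2016 CPM in controls. Myoglobin (Mb), on the skeletal muscle list, rose by 0.71. Of 11 fast-fibre markers 1 fell, the troponin Tnnt3 (-0.65), beside 0.497% of all tested genes. Of these 11 markers 9 had a negative fold change, with a median of -0.21 over the 11. The myosins Myh1 (0.64) and Myh2 (0.79) were positive, neither called. The summed level of the 11 overlapped but had the lower median in knockouts. It was 138275, 165735 and 204465 CPM in knockouts and 152002, 215271 and 227757 CPM in controls. No listed slow-fibre or fast-fibre marker was at 0 in all libraries, and the part of these differences in the level of Gbe1 was not tested. Of 46 tested markers of 10 other cell types 2 were called by edgeR, both lower, beside 0.497% of all tested genes: the adipocyte hormone gene Lep and the tendon matrix gene Comp. Of the 6 adipocyte markers 3 had a positive and 3 a negative fold change (median -0.052, summed level 896 to 1568 CPM in knockouts and 853 to 1157 CPM in controls), and 4 of 5 tested tendon markers were negative (median -0.59). In bulk samples fewer cells of a type and less RNA per cell cannot be told apart.

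**Figure D4:**
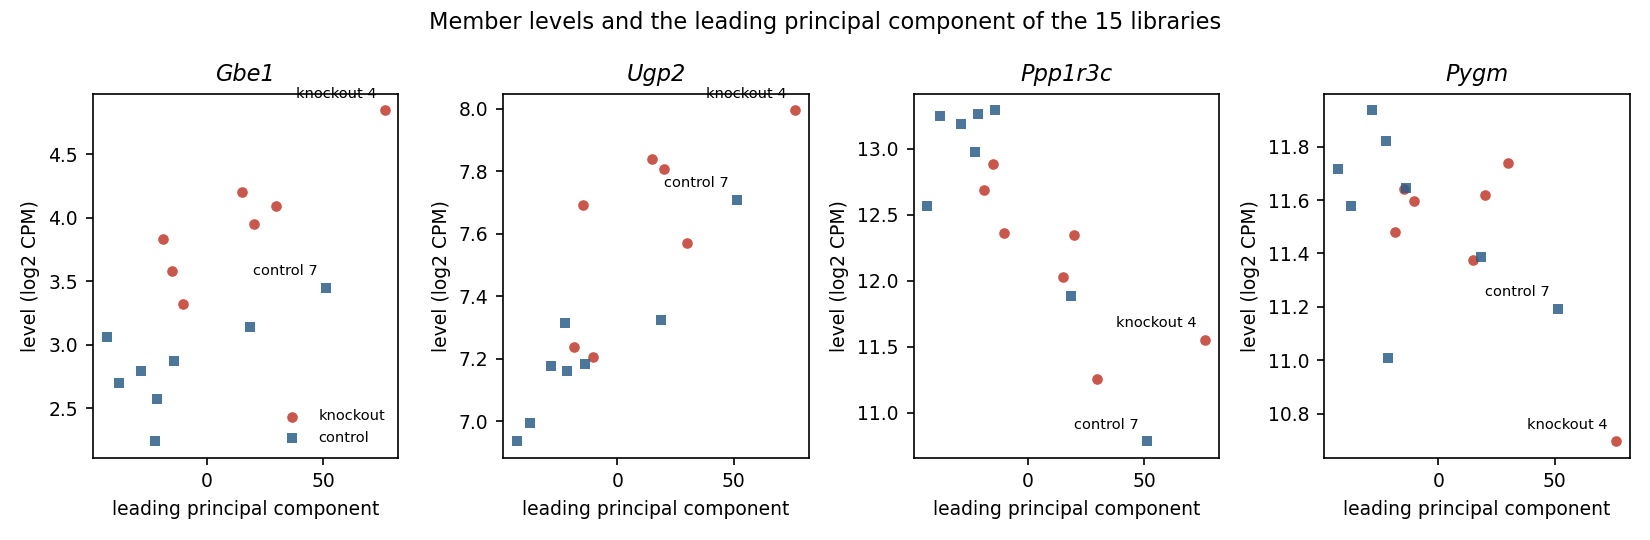
Level in log2 CPM of Gbe1, Ugp2, Ppp1r3c and Pygm against the score of each library on the leading principal component of all tested genes, with knockout libraries as red circles and control libraries as blue squares. Gbe1 and Ugp2 are higher and Ppp1r3c lower toward the right, where knockout replicate 4 and control replicate 7 lie farthest out in their groups.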

How the data were processed

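The authors deposited raw tag counts per gene symbol for 15 SOLiD SAGE libraries, 7 knockout and 8 control, from Trizol RNA, per the labels' protocols, with 1 library per mouse as the series text counts them. The authors also deposited normalized signal values, equal to these counts divided by 1 size factor per library, which were used only to check the counts. DESeq2 and the builds mm10 and GRCm38.p1 are named in the submitters' processing notes, whereas no aligner, tag counting or annotation is named (not given in the sources used here). In all, 360 blank lines of the count table held no values. The smallest gene total was 22, and no gene had counts in fewer than 6 libraries.

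Counts were tested with edgeR 4.0.16 (R 4.3.3): TMM scaling, filterByExpr (minimum count 10, 11062 genes kept), robust quasi-likelihood, group as the only term, Benjamini-Hochberg adjustment over all genes at 0.05. Log2 CPM used a prior count of 2. DESeq2 1.42.0, other scalings, no filter, a replicate block and left-out libraries were alternatives, and the code was tested on simulated data. The precision of a level is limited by its tags, a mean of 158 per library for Gbe1, and by the spread between libraries. The members, the gene lists and the tests were chosen with earlier results of these data known. The text names all 9 members, Cpt1b, called genes of the lists, the 2 most abundant genes of each role and the 3 genes most like each called member. Ppp1r3d, which did not pass over all genes, was named after its value was seen. Values of 3 genes so chosen are not reported here. The listed genes Gys2 and Ppp1r3g were not analysed here.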

Additional observations from a re-analysis of the deposited data

Results flagged for a closer look

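In 32 sets of values (1 level, total or ratio in 1 group) the highest or lowest library was compared with its nearest neighbour, and 6 stood apart by Dixon's gap criterion at 95%. Chance flags about 1 in 20 where sets are independent and values normally distributed. These values were not transformed and some sets share a gene, so 6 of 32 cannot be set against that rate. Knockout replicate 4 accounted for 3 of the 6 flags: its total of 19397255 counts (next 13073442), its Pygm level of 1659 CPM (next 2660 CPM) and its Gys1 to Pygm tag ratio of 0.119 (next 0.0756). Control replicate 7 accounted for 2: its Ugp2 level of 209 CPM (next 160.04 CPM) and its Ppp1r3a to Ppp1r3c tag ratio of 0.192 (next 0.0660). The Ppp1r3a level of knockout replicate 6, 215 CPM, lay below the next of its group at 267 CPM. No value of Gbe1 was flagged in either group.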

How the results depend on the processing

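Gbe1 stayed higher and past the threshold in 20 of 21 alternatives, with log2 fold changes from 0.98 to 1.28, and Ppp1r1a in 20 of 21, from 0.56 to 0.69. The exception for both was the replicate block (Gbe1 1.14, edgeR adjusted p = 0.0645; Ppp1r1a 0.63, edgeR adjusted p = 0.11), in which 0 members and 0 other listed genes were called and all genes called numbered 98 higher and 19 lower. Same-numbered libraries had correlated deviations above 0.1 in 3 of 7 pairs (-0.45 to 0.314). These values cannot decide whether the replicate numbers pair the libraries, since differently numbered pairs were not compared. Within each group the replicate numbers follow the ascending numbers in the sample descriptions, and no label used here states a pairing. With 1 library left out, members called higher numbered 1 to 2, all genes higher 131 to 311 and all genes lower 30 to 154, against 185 and 55 with all libraries. DESeq2 called 1 member lower and 310 and 145 genes in all, and without control replicate 7 and knockout replicate 4 together 148 genes were lower. Gys1 changed sign with library totals alone (0.052), without both of those libraries (0.039) and with single libraries left out (-0.075 to 0.070), Gyg with 1 left out (-0.0026 to 0.098) and Pygm likewise (-0.15 to 0.015), none of them called. The cause was not tested. Cpt1b stayed lower in all 18 alternatives (exact permutation p 0.000999 to 0.0113). Gbe1 and Cpt1b rest on few tags, a mean of 158 and 70.9 per library. Their precision is also limited by the spread between libraries. The coefficients of variation were 37.2% for Gbe1 and 43.3% for Cpt1b in knockouts, and 26.2% and 41.5% in controls.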
